A study of Mus musculus with 20 samples.

Results

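Cytosolic ribosomal protein genes were taken as the clones annotated to a single gene symbol that was Rpsa, Rplp0, Rplp1 or Rplp2, or that began with Rpl or Rps followed by a digit, leaving out the Rps6k kinases and pseudogenes. They made up 69 of the 6970 genes with a single symbol on either of 2 designs of spotted cDNA array, and comprised 25 proteins of the small subunit, 41 of the large subunit and 3 of the ribosomal stalk. The first design carried 35 of them among 3838 genes, as 54 clones, and the second 60 among 4075 genes, as 110 clones. Both designs shared 26, the first alone had 9 and the second alone 34. The choice used names and no measured value. It also took in Rpl7l1, Rpl39l and Rps27l, whose products resemble Rpl7, Rpl39 and Rps27 and are described separately below where they differ.

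The arrays compared mice of the F line, selected for high body fat, with the Fob3b line, which has lean-line alleles at the Fob3b obesity locus of chromosome 15 on the F background. Total RNA came from pools of liver and of brown adipose tissue, a fat depot that burns lipid for heat, with pools 1 and 2 of each line. The labels give no age or sex and no number of animals in a pool. Each slide carried RNA of both dyes, and the pools of the same number were compared between the lines in both dye orientations. On the first design there were 4 such liver arrays, 4 brown adipose arrays, and 1 liver array each of F pool 1 and of Fob3b pool 1 against itself. The second design had 4 liver arrays, 2 brown adipose arrays of pool pair 1 alone, 2 liver arrays of unlike-numbered pools of both lines, called crossed here, and 1 liver array of pool 2 against pool 1 within each line. The free-text notes describe both brown adipose arrays of the second design as F against F and name both lines for the Fob3b self comparison, so results on these 3 arrays rest on the channel labels alone.

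Values are log2 ratios, centred so that the median clone of an array is at 0 and turned to Fob3b over F by the channel labels. The labels do not name the numerator, so a positive ratio means more RNA in Fob3b if red was divided by green, and all signs turn together otherwise. Both dye orientations of a pool pair were averaged. This leaves n = 2 pool pairs per tissue and design, except in brown adipose tissue of the second design, which has 1. Errors are moderated standard errors (SE) of limma. The number of arrays limits the precision, and p refers to spread between these pools, not between animals. For each gene limma weighs its own spread with that of all genes of the design, both tissues together. The first design had 2 residual degrees of freedom beside 10.2 from all genes, and the second 1 beside 10.4. An SE therefore rests mostly on the spread over all genes, not on that of the gene itself between its pools. Without centring, the median of all genes on the first design lay at -0.11 in liver and 0.30 in brown adipose tissue, and the second design had -0.36 and -0.33. In bulk tissue, fewer cells of a type and less RNA per cell cannot be told apart. Ribosomal protein genes also have close copies, many of them processed pseudogenes, whose RNA a cDNA clone can bind, so the assignment of a ratio to 1 gene is uncertain.

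Each cytosolic ribosome pairs a small subunit, which decodes the messenger RNA, with a large subunit, which joins the amino acids, and most of its proteins are present as a single copy. Their messenger RNAs are among the most abundant of the cell and usually begin with a short stretch of pyrimidines at the cap, through which mTOR signalling sets their translation. Control of these genes in growth and feeding therefore acts on translation as well as on RNA level, and arrays measure the latter.

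Windows around the annotated start sites are printed for the 3 highest and the 3 lowest members in liver on each design, because this pyrimidine tract is the sequence feature these genes are known for. Each window holds the 40 bases before and the 20 bases from the start of the RefSeq annotation of GRCm38.p6, read 5′ to 3′ on the strand of the gene, and capitals mark a run of at least 8 C or T that overlaps the 20 bases on either side of the start. Of these 12 members, 5 had such a run.
Rps18 (chr17:33955646-33955705, minus strand): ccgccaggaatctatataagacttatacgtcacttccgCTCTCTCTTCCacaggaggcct
Rpl39l (chr16:10170188-10170247, plus strand): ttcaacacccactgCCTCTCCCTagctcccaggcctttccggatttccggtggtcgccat
Rps25 (chr9:44407674-44407733, plus strand): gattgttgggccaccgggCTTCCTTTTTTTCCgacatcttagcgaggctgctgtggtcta
Rpl39 (chrX:37085203-37085262, minus strand): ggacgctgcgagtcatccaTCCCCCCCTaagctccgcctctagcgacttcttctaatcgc
Rpl5 (chr5:107900488-107900547, plus strand): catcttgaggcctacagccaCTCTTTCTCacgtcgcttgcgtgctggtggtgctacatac
The other 7 had none there, although that of Rpl27 opens with a run farther from the start.
Rpl26 (chr11:68901526-68901585, plus strand): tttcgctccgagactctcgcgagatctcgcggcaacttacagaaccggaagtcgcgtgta
Rpsa (chr9:120127726-120127785, plus strand): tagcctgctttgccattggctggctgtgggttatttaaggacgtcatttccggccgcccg
Rpl36a (chrX:134585614-134585673, plus strand): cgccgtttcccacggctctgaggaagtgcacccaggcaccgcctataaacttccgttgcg
Rpl27 (chr11:101442205-101442264, plus strand): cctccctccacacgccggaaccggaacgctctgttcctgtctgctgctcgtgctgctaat
Rpl7l1 (chr17:46782637-46782696, minus strand): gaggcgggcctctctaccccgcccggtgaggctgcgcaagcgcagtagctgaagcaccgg
Rpl24 (chr16:55966235-55966294, plus strand): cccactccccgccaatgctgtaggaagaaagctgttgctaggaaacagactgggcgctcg
Rpl23 (chr11:97782420-97782479, minus strand): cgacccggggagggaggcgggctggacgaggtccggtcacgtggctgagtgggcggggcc
The runs were short in letters and varied in position. Those of Rpl39l, Rps25, Rpl39 and Rpl5 end before the annotated start, so they lie outside the annotated transcript. Only that of Rps18 reaches across the start. The promoter table held 56 of the 69 members. A run of at least 8 C or T, read on the strand of the gene and overlapping the 20 bases on either side of the start, was found in 27 of the 56, or 48.2%, against 20.8% of 27025 promoters of all genes. That count takes in runs that end before the start, so it is not a count of tracts at the cap. Over the full window of 250 bases before to 50 after the start, and on both strands, GGGCGG was present in 34 members, or 60.7%, against 35.6% of all promoters. CCAAT was present in 19, or 33.9%, against 37.8%, and CACGTG in 5, or 8.93%, against 7.09%. On the second design in liver, the 22 measured members with a run had a median log2 ratio of 0.08 and the 27 without one also 0.08. On the first design the medians were -0.08 for 10 members with a run and -0.19 for 16 without.

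In liver on the first design the ribosomal protein genes stood on the negative side, with 30 of 35 below 0 and a median of -0.24, where 54.6% of all genes were negative and their median was -0.02. The 2 pool pairs did not share this. Pool pair 1 had 33 of 35 members below 0 and a median of -0.42, beside 59.3% and -0.08 for all genes. Pool pair 2 had 12 below 0 and a median of 0.06, beside 39.6% and 0.06 for all genes, so there the members lay near the background. No member passed limma at an adjusted p under 0.05, as was the case for 0% of all 3838 genes, and 2 members, both negative, had an unadjusted p under 0.05. Those 2 are 5.71% of the members, beside 2.68% of all genes, of which 1.38% were negative and 1.3% positive.

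1 array carried most of this. The members' median was -0.72 in pool pair 1 with Fob3b in green, with 33 of 35 below 0, and -0.14 in the same pools with Fob3b in red. Pool pair 2 gave 0.14 with Fob3b in red and 0.03 with it in green, each with 20 of 35 above 0. Without the low array, an alternative chosen after the data were seen, the liver median was -0.04 and 14 of 35 members were positive. On that array the members ranged from -1.65 to 0.13. The arrays of a pool against itself, where no line difference exists, had member medians of -0.19 for F, with 25 of 35 below 0, and -0.15 for Fob3b, with 30 of 35 below 0, as red over green. These are as far from 0 as the direct arrays other than the low one.

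**Figure D1:**
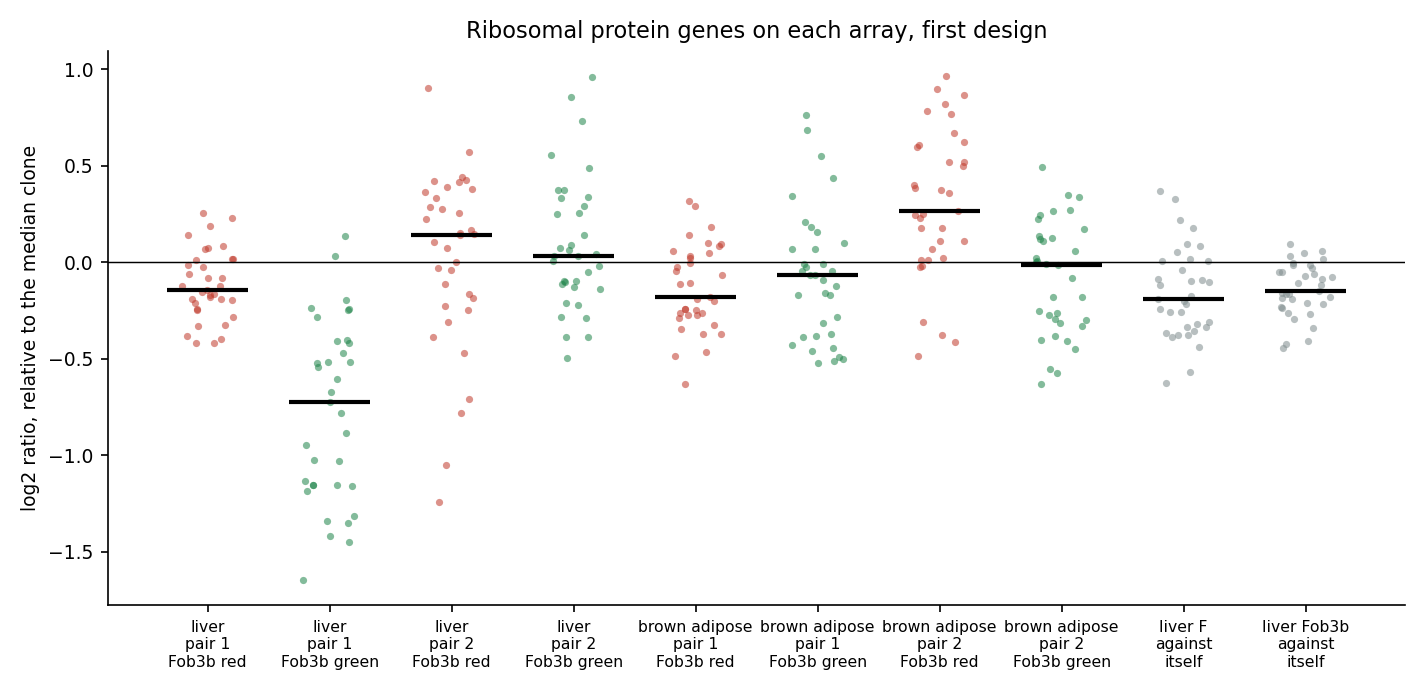
Log2 ratios of the 35 ribosomal protein genes on each of the 10 arrays of the first design, relative to the median clone, with 1 point per gene and a black bar at the median. Direct arrays are turned to Fob3b over F, red or green by the dye of Fob3b, and grey arrays are a liver pool against itself, red over green. The median is -0.72 on 1 liver array and between -0.19 and 0.27 on the other 9.

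Small subunit genes made up 11 of the 35, and 10 of them were negative in liver with a median of -0.15. Rpsa, the laminin receptor precursor that also sits on the small subunit, had -0.17 and -1.32 in pool pair 1 and -0.25 and -0.13 in pool pair 2, with Fob3b in red and in green in that order. It was below 0 on all 4 arrays, at a mean of -0.47 (SE 0.20, unadjusted limma p 0.0379, adjusted p 0.9998). Rps18, a protein of the small subunit head, had -0.18 and -1.65 in pool pair 1 and 0.29 and -0.22 in pool pair 2, for a mean of -0.44 (SE 0.23). Its arrays fell on both sides of 0 within pool pair 2, and its 3 clones agreed in sign at -0.54, -0.35 and -0.43. Rps15 at -0.39 and Rps3, which lines the entry of the messenger RNA, at -0.37 followed. Rps15 was negative in both pool pairs, at -0.36 and -0.43. Rps20 had -0.28 and was below 0 on all 4 arrays. Nearer to 0 were Rps3a1 at -0.15, Rps2 and Rps15a at -0.09, Rps9 at -0.07 and Rps26 at -0.05.

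Large subunit genes numbered 23, with 19 negative and a median of -0.24. The lowest was Rpl26, near the exit of the peptide tunnel, with -0.33 and -1.45 in pool pair 1 and -0.78 and 0.56 in pool pair 2. Its mean of -0.50 (SE 0.22, unadjusted limma p 0.0417, adjusted p 0.9998) covers arrays on both sides of 0, and dye orientation divided pool pair 2. Rpl10, which joins the large subunit late in its assembly, had -0.08, -1.16, -0.39 and -0.10 in the same order and a mean of -0.43 (SE 0.20). It was negative on all 4 arrays, as were Rpl30 at -0.36 and Rpl41, the smallest ribosomal protein, at -0.22. Rpl3, beside the peptidyl transferase centre, went from -0.91 in pool pair 1 to 0.09 in pool pair 2. Rpl5, carrier of the 5S RNA, had -0.68 and 0.18, and its 4 clones lay between -0.33 and -0.16. Rpl29 was the least even, with clones at -0.55, 0.24 and -0.40.

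The members above 0 in liver on the first design were few. Rpl39l, a paralog of the tunnel protein Rpl39 known mainly from testis, was highest, with 0.14 and 0.13 in pool pair 1 and -0.16 and 0.96 in pool pair 2, for a mean of 0.27 (SE 0.19). Rpl36a followed at 0.23, from -0.08 in pool pair 1 and 0.53 in pool pair 2, and Rpl27 at 0.12, from 0.00 and 0.24. Rpl27a had 0.02 and Rps27l 0.00. The only measured stalk gene, Rplp0, whose product anchors the stalk that recruits elongation factors, had -0.40 and 0.13 in the pool pairs and a mean of -0.14 (SE 0.22). Without the 3 ribosomal-like genes, 29 of 32 members were negative at a median of -0.24. Members below 0 on all 4 arrays numbered 5, or 14.3%, beside 3.41% of all genes, and none was above 0 on all 4, beside 4.85%.

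**Figure D2:**
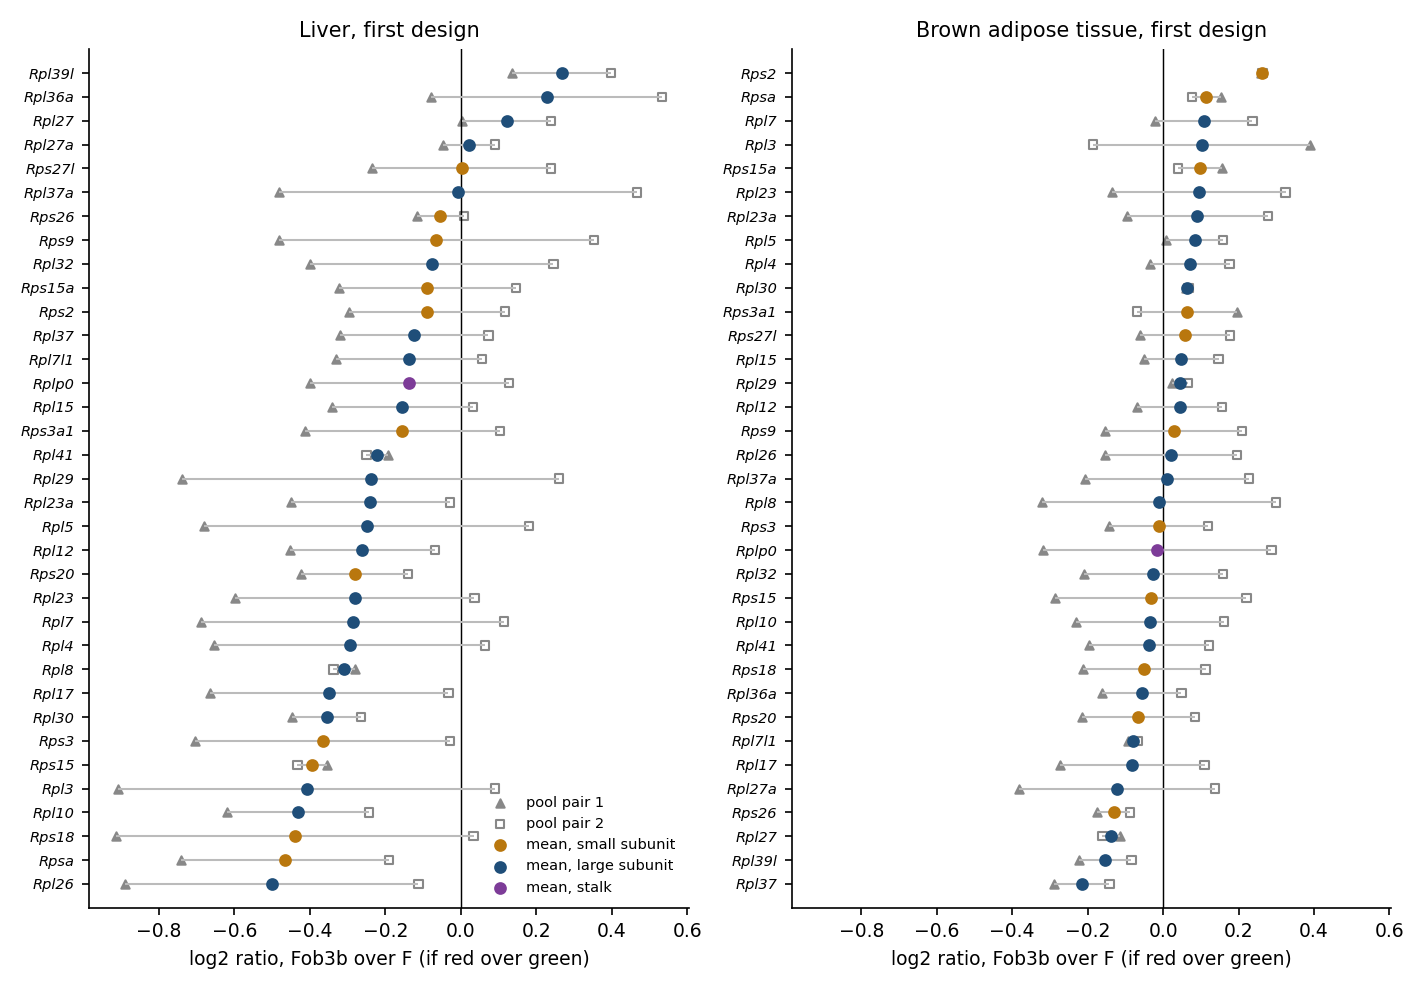
Mean log2 ratio of each ribosomal protein gene on the first design in liver and in brown adipose tissue, coloured by subunit, with pool pair 1 as triangles and pool pair 2 as open squares. Liver means run from -0.50 for Rpl26 to 0.27 for Rpl39l, and in 33 of 35 genes the liver value of pool pair 1 is below 0. Brown adipose means run from -0.22 for Rpl37 to 0.26 for Rps2 and would all lie above 0 without centring.

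Some other gene lists were also low on that array and some were not. Elongation factors had a median of -0.56 there and initiation factors -0.41, while ribosome biogenesis factors had 0.07, with 32 of 57 above 0, and genes of proliferating cells 0.00. Hepatocyte markers, of which 6 of 18 were measured, were negative in all 6 cases in liver on the first design, with a median of -0.28 and Alb, encoding albumin, at -0.74. Their median by array was -0.31 and -1.13 in pool pair 1 and 0.42 and -0.16 in pool pair 2, Fob3b in red first. The 1 measured macrophage gene of 14, Lyz2, had a mean of -0.44 and was not lowest there, with -0.50 and -0.29 in pool pair 1 and -0.30 and -0.68 in pool pair 2. The values used here are ratios without intensities, so levels of these markers are unknown, and their part in the result was not tested.

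Brown adipose tissue of the first design had members on both sides of 0, with 18 of 35 positive and a median of 0.01 beside 0.04 for all genes, although without centring all 35 were positive at a median of 0.28 and with printing blocks centred 12 were, at -0.03. Pool pair 1 had a median of -0.14 with 27 negative, beside 0.03 and 44.0% for all genes. Pool pair 2 had a median of 0.14 with 28 positive, beside 0.02 and 53.9% for all genes. No member passed limma at an adjusted p under 0.05, beside 0% of all genes, and none reached an unadjusted p under 0.05, beside 1.02%. By array the medians were -0.18 and -0.07 in pool pair 1 and 0.27 and -0.01 in pool pair 2, with Fob3b in red first. The array at 0.27 had 29 of 35 members above 0, and without it the median of the tissue was -0.10.

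Among small subunit genes in brown adipose tissue Rps2 was highest, with 0.08 and 0.44 in pool pair 1 and 0.27 and 0.26 in pool pair 2. All 4 of its arrays were positive and the pool pairs matched at 0.26 each, yet its SE of 0.19 left an unadjusted limma p of 0.198 and an adjusted p of 0.9996. Rpsa was next at 0.11 (SE 0.20), but its arrays were 0.32, -0.01, 0.79 and -0.63 and split by dye in pool pair 2. Rps26 was lowest at -0.13, with -0.17 and -0.09 in the pool pairs. Of the large subunit, Rpl37 had -0.49, -0.09, -0.02 and -0.26, all below 0, for a mean of -0.22 (SE 0.19). Rpl27 was also negative on all 4 arrays at a mean of -0.14, while Rpl30 was positive on all 4 at 0.06. Rpl7 led the large subunit at 0.11 and Rpl3 had 0.10, from 0.39 in pool pair 1 and -0.19 in pool pair 2. Members with 1 sign on all arrays were 2 positive and 2 negative, or 5.71% each, beside 3.41% and 2.79% of all genes. Rplp0 had -0.32 and 0.29 in the pool pairs, and Rpl39l had -0.22 and -0.08.

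The tissues were compared in the same fit on the first design. Liver minus brown adipose tissue was negative in 29 of 35 members, with a median of -0.27 where all genes had -0.06. No member passed at an adjusted p under 0.05, beside 0% of all genes, and 0 had an unadjusted p under 0.05, beside 2.94%. The largest difference was that of Rpsa at -0.58 (SE 0.28, unadjusted limma p 0.0623, adjusted p 0.9984), from -0.47 in liver and 0.11 in brown adipose tissue. Rpl26 had -0.52 (SE 0.31), Rpl3 -0.51 (SE 0.35) and Rpl30 -0.42 (SE 0.26). On the other side Rpl39l had 0.42 (SE 0.27) and Rpl36a 0.28 (SE 0.29). Rpl30 was the 1 member of 35 with every liver array on one side of 0 and every brown adipose array on the other, beside 0.443% of all genes. Without liver pool pair 1 the median difference was 0.04, and without the low liver array it was -0.06.

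In liver on the second design, with the same pools, the members stood on the positive side. Of 60, 44 were positive with a median of 0.08, where 51.8% of all genes were positive with a median of 0.01, although without centring all 60 were negative at a median of -0.29 beside -0.36 for all genes. Pool pair 1 had 42 positive and a median of 0.04, beside 49.3% and -0.002 for all genes. Pool pair 2 had 45 positive and a median of 0.11, beside 54.6% and 0.02 for all genes. No member passed limma at an adjusted p under 0.05, where 11 of 4075 genes, or 0.27%, did, and the smallest adjusted p of a member was 0.142, for Rpl24. At an unadjusted p under 0.05 there were 12 members, or 20%, beside 9.99% of all genes. Of the 12, 11 were positive, where 3.34% of all genes were positive and passed that threshold, and 1 was negative, where 6.65% were. With each printing block centred on its own median, 51 of 60 were positive at a median of 0.10.

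Large subunit genes held the top of this ranking, with 26 of 35 positive and a median of 0.09. Rpl24 had 0.32 and 0.15 in pool pair 1 and 0.45 and 0.27 in pool pair 2, Fob3b in red first, for a mean of 0.30 (SE 0.08, unadjusted limma p 0.00327). Rpl23, a protein of the face that meets the small subunit, had 0.29, 0.18, 0.38 and 0.26 and a mean of 0.28 (SE 0.08, unadjusted limma p 0.00469, adjusted p 0.173). Both were positive on all 4 arrays with Fob3b in red higher than in green in each pool pair. Rpl5 was also positive on all 4, with 0.26, 0.01, 0.39 and 0.32 and a mean of 0.24 (SE 0.08, adjusted limma p 0.301). Rpl26 had 0.42, -0.09, 0.29 and 0.22 for a mean of 0.21, so that its dye orientations differed in sign in pool pair 1. The other large subunit genes with an unadjusted p under 0.05 were Rpl31 and Rpl35a at 0.19, Rpl12, Rpl9 and Rpl7a at 0.18. The 4 clones of Rpl31 had 0.27, 0.26, 0.16 and 0.06, all positive.

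The lowest large subunit genes in liver on the second design were Rpl7l1 at -0.15, Rpl39 at -0.11 and Rpl27 at -0.08. Rpl7l1, a paralog of Rpl7 found on precursors of the large subunit, had -0.14, 0.03, -0.18 and -0.32, while the 6 clones of Rpl7 itself lay between 0.05 and 0.18. Rpl39 had -0.06, 0.03, -0.26 and -0.14, so that pool pair 2 gave nearly all of it. Rpl27 was negative on all 4 arrays at -0.14, -0.11, -0.01 and -0.06. Rpl11, which travels with Rpl5 and the 5S RNA, had -0.04 where Rpl5 had 0.24.

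Of the small subunit, 16 of 23 were positive at a median of 0.05. Rps25 stood apart at the bottom, with -0.20, -0.23, -0.20 and -0.19 on the 4 arrays, the most even values of any member named here. Its mean was -0.21 (SE 0.08, unadjusted limma p 0.0225, adjusted p 0.381), measured with 1 clone. Rps15a was highest, with 0.41, -0.14, 0.37 and 0.31 for a mean of 0.24 (SE 0.08, adjusted limma p 0.303), again with 1 dye orientation of pool pair 1 on the other side of 0. Rps13 followed at 0.17, Rps4x, the X-linked Rps4 gene, at 0.15 and Rps29 at 0.14. Rps6, the phosphorylation target of the S6 kinases, had 0.08 (SE 0.08). Rpsa, lowest of the small subunit on the first design, had 0.04 over 5 clones that ran from -0.01 to 0.14. The stalk genes Rplp1 and Rplp2, which bind Rplp0 as pairs, had 0.14 and 0.11, and Rplp1 was positive on all 4 arrays at 0.15, 0.18, 0.07 and 0.16. Members above 0 on all 4 arrays numbered 12, or 20%, beside 9.99% of all genes, and 2 were below 0 on all 4, or 3.33% beside 8.96%.

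**Figure D3:**
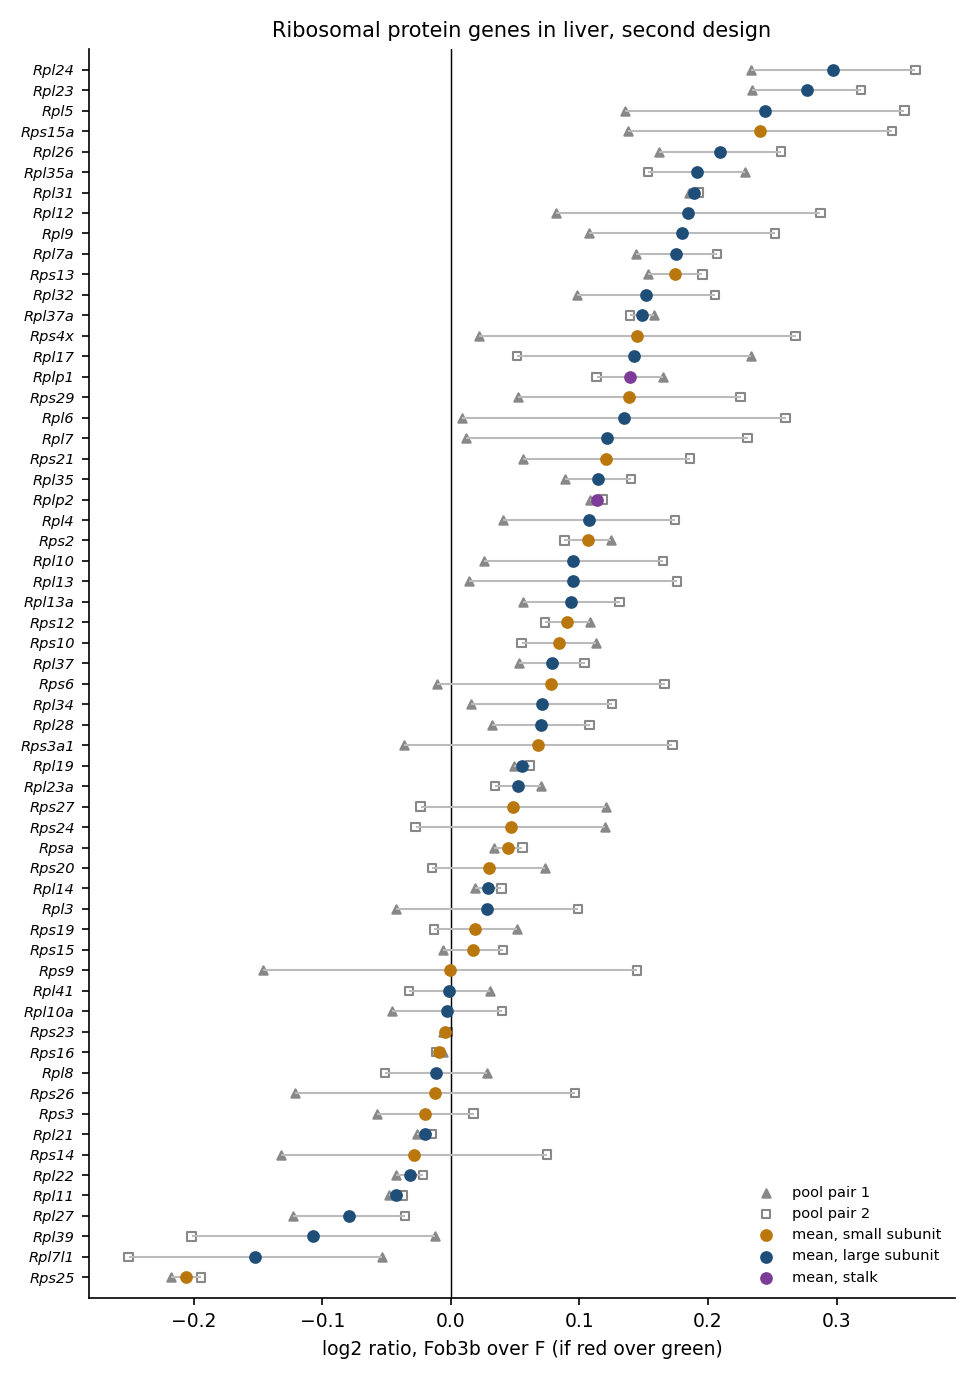
Mean log2 ratio of the 60 ribosomal protein genes in liver on the second design, coloured by subunit, with the values of pool pairs 1 and 2. Means run from -0.21 for Rps25 to 0.30 for Rpl24, 44 of them are above 0 after centring on the median clone, and all would be below 0 without it.

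The further liver arrays of the second design give the background to these values. With pools crossed between the lines, the members' median was 0.12 with Fob3b in red, 47 of 60 above 0, and 0.05 with Fob3b in green, 36 above 0. Rpl24 had -0.18 with Fob3b in red and 0.16 in green, Rpl23 had -0.02 and 0.17, and Rps25 had 0.28 and -0.15, so each lay on both sides of 0. These arrays are no dye swap, since the first holds Fob3b pool 2 with F pool 1 and the second Fob3b pool 1 with F pool 2, so dye and pool cannot be told apart. Within the F line, pool 2 over pool 1 gave a median of -0.14 with 50 of 60 members below 0, and within Fob3b -0.03 with 34 below 0. Rpl24 itself had -0.40 between the F pools and -0.16 between the Fob3b pools. The median between the F pools, on 1 array, was as far from 0 as that of any direct liver array of the design.

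**Figure D4:**
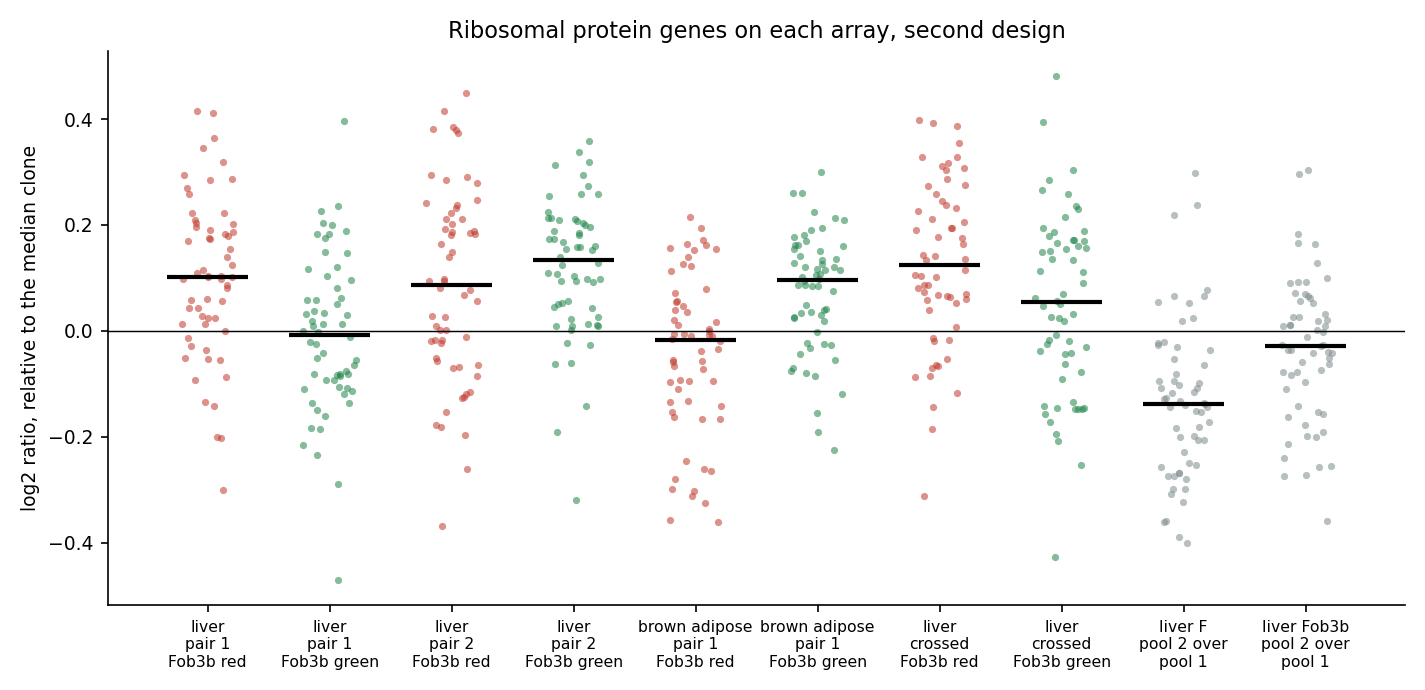
Log2 ratios of the 60 ribosomal protein genes on each of the 10 arrays of the second design, relative to the median clone, with a black bar at the median. Colours give the dye of Fob3b and grey arrays compare pool 2 with pool 1 of 1 line. Medians of the direct and crossed liver arrays lie between -0.01 and 0.13, and that between the F pools is -0.14.

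Brown adipose tissue on the second design had 1 pool pair, so there is no test. Of 60 members 35 were positive with a median of 0.03, equal to that of all genes at 0.03, and without centring all 60 were negative at a median of -0.34 beside -0.33. The 2 arrays had medians of -0.02 with Fob3b in red and 0.10 with it in green. The members were closer together than other genes here, with an SD over genes of 0.10 beside 0.21. In brown adipose tissue of the first design the SDs were 0.10 and 0.15. Liver had 0.19 and 0.19 on the first design and 0.10 and 0.12 on the second, so the gap was small or absent there. On the second design the members average more clones than other genes, 110 for 60 members beside 4855 for all 4075 genes. On its 2 brown adipose arrays a spot deviated from its clone mean with SDs of 0.07 and 0.05 for members, Fob3b in red first, beside 0.10 and 0.07 for all clones. The part of these differences in the narrower SD was not tested. Rpl7a, at 0.21 and 0.19, had the highest mean, 0.20, followed by Rpl13 at 0.18 and Rpl24 at 0.17. Rps27 was lowest at -0.25, with -0.30 and -0.19, then Rplp2 at -0.19 and Rpl23a at -0.15, whose arrays were -0.31 and 0.02. Rplp1 had 0.08 where its partner Rplp2 had -0.19. Rpl37a was the 1 member of 60 with its liver and brown adipose arrays all on opposite sides of 0, at 0.15 and -0.06, beside 2.87% of all genes. Both arrays shared a positive sign for 18 of 60 members, beside 38% of all genes, and a negative sign for 10, beside 25.5%.

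The 26 members on both designs can be set side by side for liver, where the RNA pools were the same and the values are therefore not independent. On the first design 25 of the 26 were negative with a median of -0.26, and on the second 19 were positive with a median of 0.07. In pool pair 1 the medians were -0.45 and 0.04, and in pool pair 2 they were 0.05 and 0.10. Rpl26 had -0.50 on the first and 0.21 on the second, Rpl23 -0.28 and 0.28, Rpl5 -0.25 and 0.24, Rpl12 -0.26 and 0.18, and Rpl10 -0.43 and 0.10. Rpsa had -0.47 and 0.04, Rps15 -0.39 and 0.02, Rps3 -0.37 and -0.02, and Rpl3 -0.41 and 0.03. Of these 9 genes only Rps3 lay below 0 on both designs. Outside these 9, Rpl41, Rpl8, Rps26 and Rps9 were also below 0 on both, with second-design means of -0.001, -0.01, -0.01 and -0.0007. Rpl7l1 was negative on both, at -0.14 and -0.15, and Rpl27 had 0.12 and -0.08. In brown adipose tissue the shared members had medians of 0.02 on both designs, but these cover unlike sets of pools. The first design averages 2 pool pairs and the second holds pool pair 1 alone. In pool pair 1 the median was -0.14 on the first design, with 20 of 26 negative, and 0.02 on the second, with 11 negative. Pool pair 2 of the first design had 0.16. By mean over the pools of a design, Rps2 had 0.26 on the first and 0.04 on the second, Rpl37 -0.22 and -0.11, and Rpl27 -0.14 and -0.11.

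Each clone was printed as 2 spots. The deviation of a spot from the mean of its clone had an SD over member clones of 0.06 to 0.14 by array on the first design, and the second design had 0.05 to 0.07. Between clones of 1 gene in liver, the SD was 0.18 on the first design, over 13 genes with several clones, and 0.06 on the second, over 24. In brown adipose tissue it was 0.08 and 0.09. The SD between the means of those genes in the same order of designs was 0.15 and 0.06 in liver, and in brown adipose tissue it was 0.08 on each. These means average several clones and still hold differences between clones, so the SDs of clones and of genes are unlike measures. Of the genes with several clones, all clones shared 1 sign in 11 of 13 on the first design and 19 of 24 on the second in liver, but in brown adipose tissue in 8 of 13 and 8 of 24.

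Chromosome 15, which holds the Fob3b locus, carries 4 of the 69 members. In liver on the first design these were Rpl3 at -0.41, Rpl30 at -0.36, Rpl8 at -0.31 and Rpl37 at -0.12. On the second, Rpl3 had 0.03, Rpl37 0.08 and Rpl8 -0.01, and Rpl30 was not measured. In brown adipose tissue, again of the first design, Rpl3 had 0.10, Rpl30 0.06, Rpl8 -0.01 and Rpl37 -0.22, all with an unadjusted limma p above 0.05. Whether any of them lies within the introgressed segment was not determined here.

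Other genes of translation were listed by role. The 29 mitochondrial ribosomal proteins of the first design, which build the separate ribosome of the mitochondrion, had a liver median of -0.05 with 17 negative, and 0.13 in brown adipose tissue with 23 positive. None of them passed in either tissue, with Mrpl42 lowest in liver at -0.47 and Mrpl50 highest in brown adipose tissue at 0.36. On the second design 21 had medians of 0.03 in liver and 0.10 in brown adipose tissue, and 0 passed in liver. Elongation factors, 5 genes on the first design, had medians of -0.14 in liver and 0.10 in brown adipose tissue. Eef1a1, which delivers aminoacyl-tRNA and is also led by a pyrimidine tract, had -0.58 (SE 0.23, adjusted limma p 0.9998) in liver on the first design, and the second gave 0.04. The 9 elongation factors of the second design had a liver median of 0.00. Initiation factors had liver medians of -0.07 for 25 genes and -0.01 for 21, with Eif4e, the cap-binding protein, at 0.38 and 0.23, the highest of its list on both.

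Ribosome biogenesis factors had liver medians of -0.05 for 57 genes on the first design and -0.01 for 35 on the second. On the second, 1 of the 35 passed: Rexo4, a predicted exonuclease of the nucleolus, fell by 0.47 (SE 0.08, adjusted limma p 0.0473). In the mTOR and S6 kinase list, with 8 genes on the second design, 1 passed in liver: Rps6ka5, a stress-activated kinase that the symbol rule leaves out, fell by 0.56 (SE 0.08, adjusted limma p 0.0177). No gene of the second design passed when the crossed-pool arrays were added, so neither call held there. Nascent chain and ribosome-bound factors had liver medians of -0.03 for 11 genes and 0.03 for 9, with Sec61g, a subunit of the channel that takes new proteins into the endoplasmic reticulum, at 0.34 on the second (adjusted limma p 0.0869). Deptor, which restrains mTOR, had 1.73 (SE 0.25, adjusted limma p 0.0632) in brown adipose tissue of the first design, where the ribosomal protein genes had a median of 0.01.

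**Figure D5:**
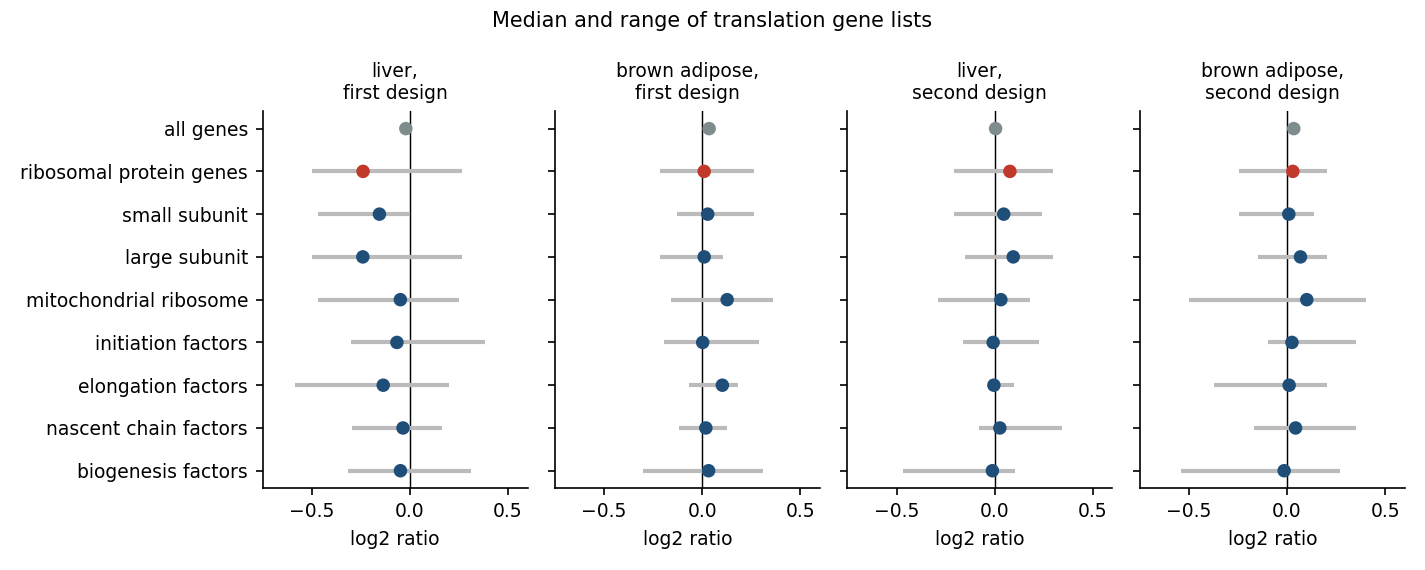
Median log2 ratio (point) and range from the lowest to the highest gene (grey bar) of each translation gene list in the 4 comparisons, relative to the median clone, with the median alone for all genes. The median of ribosomal protein genes is -0.24 in liver on the first design and between 0.01 and 0.08 in the other 3 comparisons.

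Markers of other cell types were few on these arrays. In brown adipose tissue 2 skeletal muscle genes of 17 had a median of -0.52 on the first design, and 3 had 0.69 on the second, whose pool pair 1 is also on the first. Tpm2, on both designs, had means of -0.58 and 0.74. In pool pair 1 both muscle genes were negative on both arrays of the first design, and all 3 were positive on both arrays of the second. The free-text notes conflict with the channel labels of these second-design arrays, and which of them is right was not tested. Of 13 brown adipocyte markers only Lpl was measured on the first design, at -0.25, and Elovl3 and Prdm16 on the second, at -0.05 and -0.15, so ratios cannot test the labelled tissue. For liver on the second design, 4 of 13 erythroid genes had a median of -0.01, 2 of 14 macrophage genes -0.01, and the lymphocyte gene Ighm 0.21. On the second design 7 of 20 genes of proliferating cells had a liver median of 0.06. The part of these cells in the ratios of the ribosomal protein genes was not tested.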

How the data were processed

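Spotted cDNA arrays of 2 designs gave 1 red-to-green ratio per spot for liver and brown adipose RNA pools, 10 arrays per design. The deposited values were taken as log2 ratios from their range, since the labels name neither the log base nor the numerator, and the normalization the authors applied is not stated in the labels. Control spots, 1920 per design, were left out, the 2 spots of each of 7680 clones were averaged, and each array was centred on its median clone. Groups and dye orientation came from the channel labels, which conflict with the free-text description of some arrays. Clones of a gene and then dye orientations of a pool pair were averaged. limma 3.58.1 in R 4.3.3 fitted the tissues of a design together (two-sided, Benjamini-Hochberg over all genes), which left 2 residual degrees of freedom for the first design and 1 for the second, and was tested on simulated data. Clones with several symbols were left out, among them 10 and 21 that included a ribosomal protein gene. Every member could be named by its mean. Array or pool pair values were given for the 3 highest and 3 lowest of a comparison, members on both designs, stalk genes, Rpsa and ribosomal-like genes, and for other lists the extremes and those that passed. Members and lists were chosen with earlier results of these data known. Promoter sequences are RefSeq's for GRCm38.p6.

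Alternatives covered centring, scaling, dye orientation, spots, clones, replicates and the fit. Those that leave out 1 array were chosen after the data were seen. Pool numbers were also used as a block.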

Additional observations from a re-analysis of the deposited data

Results flagged for a closer look

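An array stood apart from the other 3 of its group in 9 of 133 sets of 4 direct arrays examined by Dixon's 95% criterion. Chance gives about 1 in 20 for independent values, and the count is near that rate. The 4 arrays are dye orientations of 2 pool pairs and the members share arrays, so the rate is only approximate. Members and their medians alone were examined, so a share over all genes is lacking. In liver on the first design, pool pair 1 with Fob3b in green gave Rpl17 -1.34, against -0.14 to 0.08 on the others, and Rpsa -1.32, against -0.25 to -0.13. In brown adipose tissue on that design, pool pair 1 with Fob3b in red gave Rpl15 -0.26, against 0.12 to 0.18, and Rpl32 -0.63, against 0.14 to 0.21. Rpl8 had 0.90 there in pool pair 2 with Fob3b in red, against -0.38 to -0.26. In liver on the second design, pool pair 1 with Fob3b in green gave Rpl32 -0.01, against 0.20 to 0.21, Rpl4 -0.11, against 0.16 to 0.19, and Rps6 -0.16, against 0.14 to 0.18. Rps26 had -0.30 in the same pools with Fob3b in red, against 0.06 to 0.10.

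Of 95 combinations of a member and a design, 2 had every liver array on one side of 0 and every brown adipose array on the other, 1 of 35 on the first design beside 0.443% of all genes and 1 of 60 on the second beside 2.87%. Rpl30 on the first design was at -0.36 in liver and 0.06 in brown adipose tissue, and the contrast between the tissues was -0.42 (SE 0.26, unadjusted limma p 0.134). Rpl37a on the second design was at 0.15 in liver and -0.06 in brown adipose tissue, and this difference was not tested.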

How the results depend on the processing

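Ribosomal protein genes called stayed at 0 in all 60 alternatives run. Their medians moved by less than the spread between pool pairs in 53 of 59, and for brown adipose tissue of the second design, which has 1 pool pair, by less than the spread between its dye arrays in 10 of 11. That spread is the SD of 2 values and is wide, with pool pairs at -0.42 and 0.06 in liver on the first design. Leaving out 1 pool pair of a tissue, or 1 dye, can hardly move its median by more. These counts therefore do not measure how stable the medians are. Without centring the medians of the members were 0.28 and -0.34 in brown adipose tissue on the first and second designs, -0.62 for liver minus brown adipose tissue and -0.29 in liver on the second, where all genes had 0.30, -0.33, -0.42 and -0.36. The tissue difference ran from -0.49 to 0.040 with 1 pool pair left out, and was -0.062 without the liver array of pool pair 1 with Fob3b in green. Of 2400 values of single members under alternatives, 578 moved by more than that spread and 0 counted as reversed, since no member was called.

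Genes called in liver on the second design, 11 in the fit reported, were 67 without centring, 27 with printing blocks centred, 43 from the second spot and 25 with clones as features. They were 0 with arrays scaled to a common spread, with Fob3b in red only, with Fob3b in green only, with crossed-pool arrays added and with every array as its own replicate. On the first design, with 0 called in the fit reported, brown adipose tissue gave 1 without centring, 1 from the first spot, 1 when fitted alone and 147 with Fob3b in red only, and 0 to 2 with 1 pool pair left out. Liver gave 10 and the tissue difference 8 with Fob3b in red only, and liver 0 to 15 with 1 pool pair left out. The cause was not tested. Leaving out a pool pair on the second design left no residual degrees of freedom, so it gave a value without a test.

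For the tissue difference of the first design, the comparison in which a block was fitted, the pool number as a replicate block gave 0 genes and 0 members called. Deviations of same-numbered pools correlated at 0.372 over all genes and -0.214 over members, and the labels do not say that a number marks the same animals.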
